A study of Homo sapiens with 8 samples.

Results

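The genes described here are 10 members of the Notch pathway: the ligands JAG1, JAG2, DLL1 and DLL4, the receptors NOTCH1, NOTCH2 and NOTCH3, and the target genes HES1, HEY1 and HEY2. They were chosen by gene symbol, and each was read by 1 probe set of the array, so they are 10 of 18417 genes tested. RNA came from BT549, a human triple-negative breast cancer cell line, in 4 cultures kept in forced suspension and 4 cultures grown attached. Suspended cells sat for 24 h on dishes covered with poly-HEMA, a non-adhesive polymer that keeps cells afloat, and attached cells grew on ordinary tissue culture plates. Both groups were kept in RPMI medium with 10% serum and insulin. The labels give the attached cultures as 24 h in one field and as 48 h in another, so attachment and culture time cannot be told apart if the longer time holds. All arrays come from a single cell line, described by the submitters as biological quadruplicates.

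Notch signalling passes between touching cells. A ligand of the Jagged or Delta-like type on one cell binds a Notch receptor on its neighbour, proteases then cut the receptor, and the released intracellular part enters the nucleus, where it joins the DNA-binding protein RBPJ and switches on genes such as the HES and HEY repressors. In breast epithelium the pathway is known for its part in cell fate choice, and JAG1 and Notch receptors have been studied widely in triple-negative breast cancer.

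In suspension the ligand gene JAG1 rose 3.42-fold, the target genes HES1 and HEY1 rose 1.58-fold and 1.57-fold, and the receptor gene NOTCH3 rose 1.28-fold. The receptor gene NOTCH2 was 1.30-fold lower. JAG2, DLL1, DLL4, NOTCH1 and HEY2 did not pass the test. Thus 4 of 10 members were higher and 1 was lower at an adjusted p under 0.05 in limma, a linear model fitted to all genes. Among all tested genes, 10.4% were higher and 10.2% lower. The 4 suspended arrays all lay above the 4 attached ones for 4 members, against 12.7% of all genes, and all below for 1 member, against 12.2%. The members were chosen with results of this same contrast known, so their counts, differences and p-values describe them and are not independent evidence. The median log2 difference was 0.18 over the 10 members and 0.02 over all 18417 genes.

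All values are log2 signals, and every difference is suspended minus attached, with a moderated standard error (SE). Without a measure of background, a fold is a ratio of signals, and low signals are no statement of presence. In bulk RNA, a smaller number of expressing cells and less RNA per cell cannot be told apart. Levels are compared only within a gene, since probe sets differ in response.

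The 8 arrays had medians of 6.02 to 6.07, and correlated at 0.993 to 0.996 within the suspended and 0.995 to 0.996 within the attached group, against 0.987 to 0.994 between groups. Their number limits the precision. Of 6 mesenchymal and cancer cell markers, CD44, ZEB1 and SNAI2 were higher in suspension (log2 differences 0.22, 0.27 and 1.23), CDH2 was lower (−0.38), and VIM and FN1 were not called at adjusted p by limma. Their summed signals were 13.49 to 13.54 in suspended and 13.25 to 13.30 in attached arrays. Of 5 epithelial markers CDH1, and of 3 hormone receptor genes ESR1 and PGR, lay below 5.28, the 25th percentile of gene means. EPCAM, KRT8, KRT18, KRT19 and ERBB2 lay above it, and 0 of these 8 genes were called. Of 8 endothelial markers, 7 lay below that level and 0 were called in either direction at adjusted p by limma, with summed signals of 7.91 to 8.07 in suspended and 7.98 to 8.06 in attached arrays. Of 5 leukocyte markers CD14 was higher (0.22) and CD68 lower (−0.39), with sums of 8.50 to 8.57 in suspended and 8.75 to 8.82 in attached arrays, while PTPRC, which defines leukocytes, was below the 25th percentile. Of 4 pericyte and smooth muscle markers RGS5 was lower (−0.69), with sums of 9.72 to 9.83 in suspended and 10.29 to 10.36 in attached arrays. Of 3 adipocyte markers 0 were called (sums of 7.18 to 7.26 in suspended and 6.97 to 7.17 in attached arrays). SNAI2 and ERBB2 are also listed among the reported Notch targets. The part of these markers in the Notch results was not tested. Over all genes 50.4% of calls were higher in suspension as deposited, and 35.2% were higher with arrays centred on their medians.

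**Figure D1:**
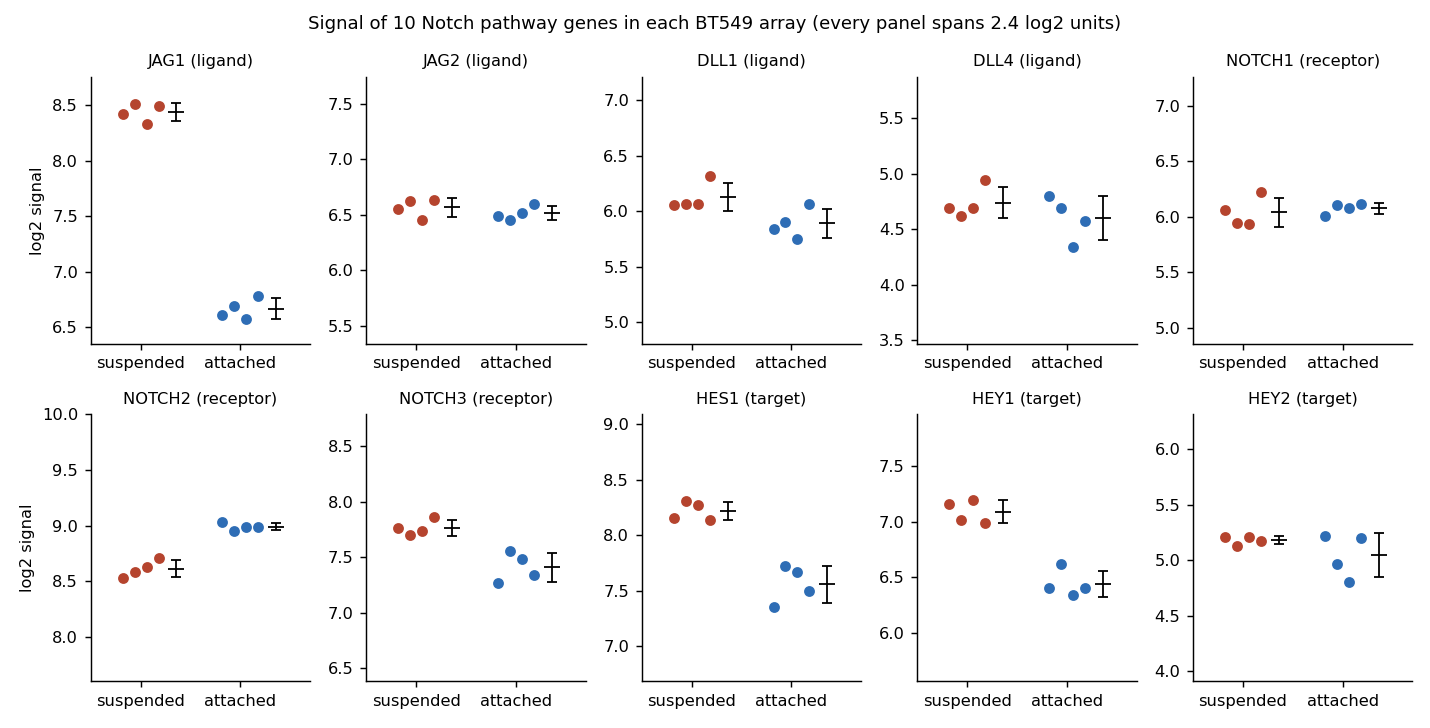
Log2 signal (vertical axis, each panel spanning the same width) of the 10 Notch genes in the 4 suspended (left) and 4 attached (right) arrays, with the mean and SD as black bars. The suspended points of JAG1, HES1, HEY1 and NOTCH3 lie above all attached points, those of NOTCH2 lie below, and the other 5 genes overlap.

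Among the 4 ligands, JAG1 was the one past the threshold and had the largest difference. JAG1 encodes Jagged1, a membrane ligand whose loss of function causes Alagille syndrome in humans. Its signal was 8.42, 8.51, 8.33 and 8.50 in suspended replicates 1 to 4, against 6.61, 6.70, 6.58 and 6.78 in attached replicates 1 to 4. The lowest suspended array stood 1.55 log2 units above the highest attached one, so the groups were wide apart. Means were 8.44 ± 0.08 in suspended and 6.67 ± 0.09 in attached cells (SD, n = 4 each). The log2 difference was 1.77 (SE 0.06, 95% confidence interval 1.64 to 1.91, adjusted p = 1.53e-08), and only 4 of 18417 genes had a larger positive difference. For scale, the largest rise among all called genes was 2.63 (TDO2, which breaks down tryptophan) and the largest fall −1.93 (CCN1, a matrix-associated protein).

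JAG2, the other Jagged ligand, had signals of 6.55, 6.63, 6.45 and 6.63 in suspended arrays and 6.49, 6.45, 6.52 and 6.60 in attached arrays. The groups overlapped over most of their range. Its log2 difference was 0.05 (SE 0.06, adjusted p = 0.565), with a 95% interval of −0.07 to 0.17 that ends well below the interval of JAG1.

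DLL1, a Delta-like ligand, lay just outside the threshold. Suspended signals were 6.05, 6.07, 6.06 and 6.31, and attached signals were 5.84, 5.90, 5.75 and 6.06. Suspended replicate 4 stood above its 3 neighbours, and attached replicate 4, the highest of its group, reached the lowest suspended arrays. The log2 difference was 0.23 (SE 0.08, interval 0.06 to 0.40, adjusted p = 0.0556). DLL1 passed the test without attached replicate 4 (0.29, adjusted p = 0.0221) and when genes below the 25th percentile of signal were left out (adjusted p = 0.0420), and it did not pass without any other single array.

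DLL4, a Delta-like ligand best known from sprouting blood vessels, gave 4.70, 4.62, 4.69 and 4.95 in suspended arrays and 4.80, 4.69, 4.34 and 4.57 in attached arrays. These signals are below the 25th percentile of gene means, and the groups overlapped. The difference was 0.14 (SE 0.10, interval −0.08 to 0.35, adjusted p = 0.369).

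The receptors moved in different directions. NOTCH3, a receptor abundant in vascular smooth muscle and mutated in the small-vessel disease CADASIL, had suspended signals of 7.76, 7.70, 7.73 and 7.86, against attached signals of 7.27, 7.55, 7.48 and 7.34. All 4 suspended arrays lay above all 4 attached ones, by 0.14 between the nearest pair. The log2 difference was 0.35 (SE 0.07, interval 0.21 to 0.50, adjusted p = 0.00294), and it ran from 0.31 to 0.40 as each array was left out in turn.

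NOTCH2 signals were 8.53, 8.58, 8.63 and 8.71 in suspended cells and 9.03, 8.95, 8.99 and 8.99 in attached cells. Here every suspended array lay below every attached one, with a gap of 0.25. NOTCH2 fell by 0.38 on the log2 scale (SE 0.05, adjusted p = 0.000263). The human genome holds near-identical partial copies of NOTCH2, the NOTCH2NL genes, and a second probe set is annotated to NOTCH2, NOTCH2NLA and NOTCH2NLB together. That shared probe set averaged 8.66 ± 0.07 in suspended and 8.97 ± 0.05 in attached cells (SD, n = 4 each), a difference of −0.31 (SE 0.05, adjusted p = 0.00558 over all 33297 rows). How far RNA of the copies adds to the NOTCH2 probe set was not tested.

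NOTCH1, the receptor mutated in many T-cell leukaemias, had signals of 6.06, 5.95, 5.93 and 6.22 in suspended arrays and 6.01, 6.11, 6.08 and 6.11 in attached arrays. Suspended replicate 4 was the highest and the other 3 suspended arrays fell among or below the attached ones. The difference was −0.04 (SE 0.07, interval −0.18 to 0.11, adjusted p = 0.740). Its interval overlaps neither that of NOTCH2 (−0.49 to −0.27) nor that of NOTCH3.

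HES1 and HEY1 were the target genes that rose. HES1 encodes a basic helix-loop-helix repressor whose promoter is a standard RBPJ target. In suspended cells HES1 had 8.16, 8.31, 8.27 and 8.14, and in attached cells 7.35, 7.72, 7.67 and 7.50. The groups were separated by 0.42, with attached replicate 1 the lowest of all. The log2 difference was 0.66 (SE 0.08, interval 0.48 to 0.84, adjusted p = 0.000138).

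HEY1, a related repressor with a hairy-related domain, had 7.16, 7.02, 7.19 and 6.99 in suspended cells and 6.40, 6.61, 6.34 and 6.40 in attached cells. Its groups were separated by 0.38, and attached replicate 2 was the highest attached array. The log2 difference was 0.65 (SE 0.07, interval 0.50 to 0.81, adjusted p = 5.89e-05), so the intervals of HES1 and HEY1 nearly coincide.

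HEY2, another repressor of this family with known roles in heart and vessel development, gave 5.21, 5.13, 5.21 and 5.17 in suspended and 5.22, 4.97, 4.80 and 5.20 in attached arrays. Its mean over all arrays was below the 25th percentile of gene means, and the groups overlapped. The difference was 0.13 (SE 0.08, interval −0.05 to 0.32, adjusted p = 0.304).

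**Figure D2:**
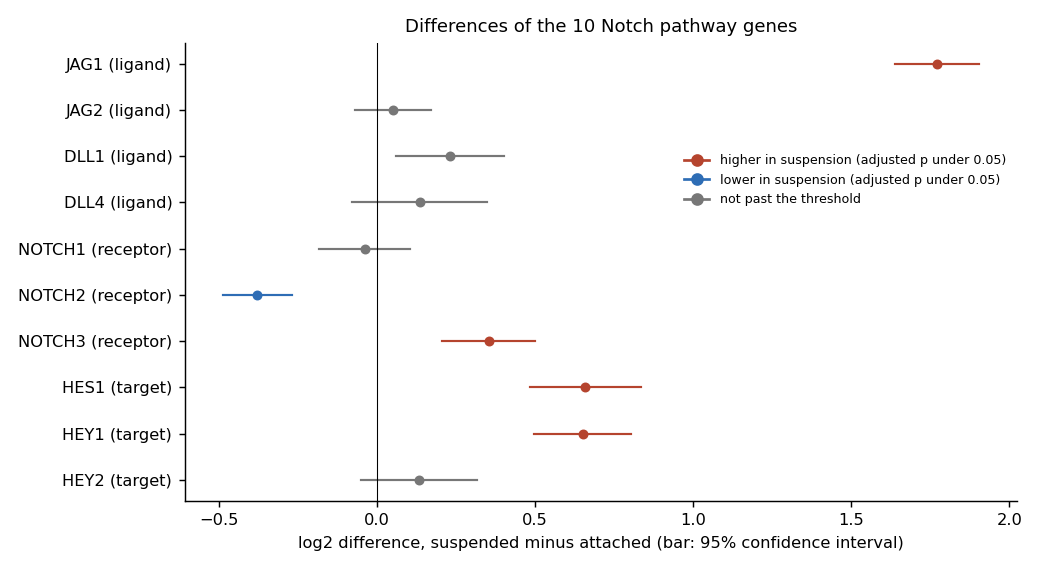
Log2 difference, suspended minus attached (horizontal axis), of the 10 Notch genes with 95% confidence intervals as bars. JAG1 stands at 1.77, HES1 and HEY1 at 0.66 and 0.65, NOTCH3 at 0.35 and NOTCH2 at −0.38, and the grey genes did not pass the test.

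Upstream sequences show which of these genes carry the letters RBPJ reads. They were available for 8 of the 10 members as the 250 bases before the start of the gene, from RefSeq, build GRCh38.p14. DLL1 and HEY1 had no such sequence, so HEY1, a target that rose, is not part of this comparison. The RBPJ core TGGGAA, searched on both strands, occurred in 21.1% of 27303 such windows of all genes, and its longer form GTGGGAA, which contains the core, in 5.46%. HES1 held 2 cores and HEY2 held 1, while JAG1, JAG2, DLL4, NOTCH1, NOTCH2 and NOTCH3 held 0 in this window. The windows of HES1, HEY2 and JAG1 are printed because they contrast the 2 targets that carry the core, one that rose and one that did not pass the test, with the ligand that rose most. Capitals mark the RBPJ core or its reverse complement, and each runs 5′ to 3′ on the strand of its gene.
HES1: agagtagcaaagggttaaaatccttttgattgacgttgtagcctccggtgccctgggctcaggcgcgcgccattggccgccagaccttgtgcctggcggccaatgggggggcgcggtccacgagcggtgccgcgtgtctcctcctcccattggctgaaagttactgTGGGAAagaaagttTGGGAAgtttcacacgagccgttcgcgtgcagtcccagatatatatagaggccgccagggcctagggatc
HEY2: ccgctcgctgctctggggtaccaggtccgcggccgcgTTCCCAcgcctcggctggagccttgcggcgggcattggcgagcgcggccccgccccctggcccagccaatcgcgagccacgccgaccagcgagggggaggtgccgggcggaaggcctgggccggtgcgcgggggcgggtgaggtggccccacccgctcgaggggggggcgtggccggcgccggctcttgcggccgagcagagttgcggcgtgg
JAG1: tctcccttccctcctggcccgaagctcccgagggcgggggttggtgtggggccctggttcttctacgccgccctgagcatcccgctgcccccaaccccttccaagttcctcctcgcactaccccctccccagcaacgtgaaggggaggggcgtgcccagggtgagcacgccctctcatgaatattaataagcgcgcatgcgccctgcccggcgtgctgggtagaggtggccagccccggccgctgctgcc
The HES1 window is chr3:194135898-194136147 on the plus strand, the HEY2 window chr6:125749382-125749631 on the plus strand and the JAG1 window chr20:10674000-10674249 on the minus strand. In HES1 the cores lie 84 to 79 and 70 to 65 bases before the start, both on the strand of the gene, and the first is part of a GTGGGAA. In HEY2 the match lies 213 to 208 bases before the start, on the opposite strand, and is also part of the longer form. The N-box CACNAG, a site bound by HES repressors, occurred 3 times in HES1 and 1 time in NOTCH3, against 32.0% of all windows with at least 1 match on either strand, and the E-box CACGTG occurred in 0 of the 8 members and in 6.49% of all windows. These matches describe letters and not binding.

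**Figure D3:**
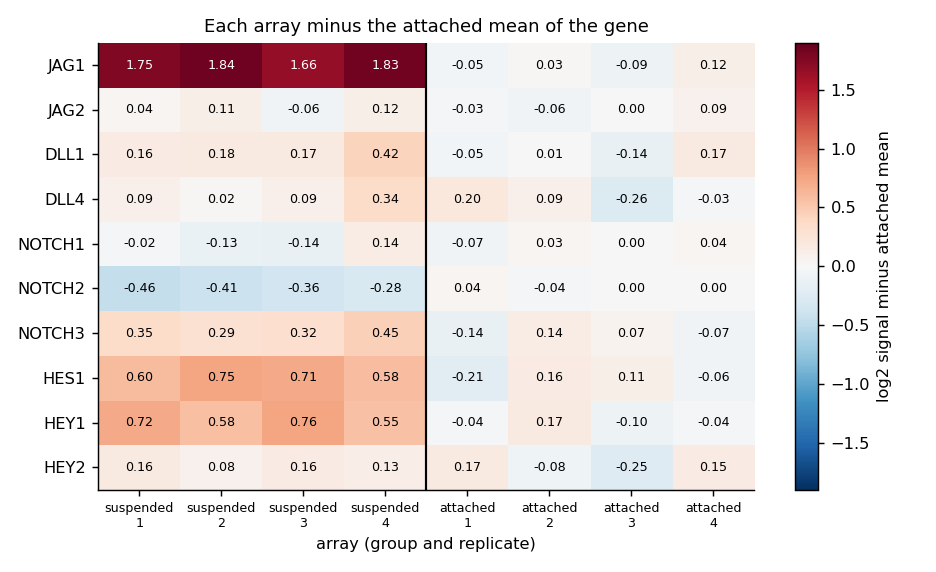
Each array (columns, suspended left of attached) minus the attached mean of the gene, in log2 units, for the 10 Notch genes (rows), with the value written in each cell. The JAG1 row runs from 1.66 to 1.84 in the suspended arrays, the HES1 row from 0.58 to 0.75, the HEY1 row from 0.55 to 0.76 and the NOTCH2 row from −0.46 to −0.28.

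Across the members the suspended arrays did not rank alike. Suspended replicate 4 was the highest of its group for 6 of 10 members and the lowest for 2, HES1 and HEY1. That array had the lowest weight when arrays were weighted by their fit (0.613, against 0.753 to 1.57 for the other 7) and the highest median over tested genes (6.46, against 6.36 to 6.44). With arrays weighted, and with that array left out, JAG1, HES1, HEY1, NOTCH3 and NOTCH2 kept their calls. The same 5 genes kept their calls without any other single array.

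The genes most like JAG1 were found by Pearson correlation over the 8 arrays, which fall into 2 groups and therefore share that split. Highest were STC1 (r = 0.998), a secreted glycoprotein, PYGB (0.998), the brain form of glycogen phosphorylase, SNAI2 (0.998), a transcription factor of the mesenchymal programme, PTGES (0.998), a prostaglandin E synthase, and ITGB8 (0.998), an integrin subunit. Their log2 differences were 1.44, 0.79, 1.23, 1.45 and 1.10. Lowest were C12orf75 (r = −0.998), PLAC8 (−0.996), the cell cycle kinase CDK6 (−0.996), the splicing factor SRSF3 (−0.996) and the receptor regulator LRIG1 (−0.995). In all, 1024 of 18416 other genes had r above 0.9 with JAG1, HES1 (0.939) and HEY1 (0.950) among them, and 1064 had r below −0.9, among them NOTCH2 (−0.964).

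Beyond these members, 85 further genes of the pathway were listed in 7 lists by role, and 78 of them were tested. The lists were chosen with earlier results of these data known. Their counts and differences describe them and are not independent evidence. Of the 78, 26 were higher (33.3%) and 9 were lower (11.5%), beside 10.4% and 10.2% of all tested genes. The median log2 difference was 0.09 over the 78 genes and 0.02 over all genes. With arrays centred on their medians, 22 were higher (28.2%) and 11 were lower (14.1%), beside 7.28% and 13.4% of all tested genes. With only genes above the median level tested, 44.6% of the listed genes were higher and 16.1% lower. In that test 42.0% of all genes were called, and 46.9% of these calls were higher. How far signal level accounts for the shares of the lists was not tested.

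Of 8 other ligands, which include atypical ones that lack the usual receptor-binding domain, 3 rose (37.5%) and 0 fell. Of all genes, 10.4% rose and 10.2% fell. DLK1, an atypical ligand known as an inhibitor of fat cell formation, had 8.06, 7.80, 7.80 and 7.93 in suspended and 6.63, 6.98, 6.76 and 6.77 in attached cells. Its groups were far apart and it rose 2.16-fold (log2 1.11, SE 0.08, adjusted p = 3.18e-06). DNER, an atypical ligand of neurons, rose 1.51-fold with suspended signals of 7.05 to 7.11 and attached signals of 6.40 to 6.57 (log2 0.60, adjusted p = 1.15e-05). MFAP2, a microfibril protein reported to bind Notch, rose by a log2 difference of 0.31 (adjusted p = 0.000843). DLL3, DLK2, CNTN1, MFAP5 and EGFL7 did not pass, with differences between −0.08 (DLK2) and 0.11 (EGFL7), and neither did the fourth receptor gene NOTCH4 (−0.01, interval −0.18 to 0.16).

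Of 8 genes for the proteases that cut receptors and ligands, 3 rose (37.5%) and 0 fell, against 10.4% and 10.2% of all genes. FURIN, which makes the first cut in the secretory pathway, differed by 0.41 (SE 0.06, adjusted p = 0.000847). ADAM10, which makes the ligand-induced cut outside the membrane, had 9.77, 9.77, 9.82 and 9.89 in suspended and 9.42, 9.55, 9.38 and 9.48 in attached cells, a difference of 0.36 (SE 0.05, adjusted p = 0.000582). NCSTN, the nicastrin subunit of gamma-secretase, which makes the final cut, differed by 0.21 (SE 0.05, adjusted p = 0.00969). ADAM17 (−0.07), PSEN2 (−0.08), APH1A (−0.01), APH1B (0.22) and PSENEN (0.04) did not pass.

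Of 5 sugar transferases that modify the receptors, RFNG rose and POFUT1 fell, beside 10.4% of all tested genes higher and 10.2% lower. POFUT1, which adds fucose to the EGF repeats of Notch, averaged 7.99 ± 0.06 in suspended and 8.21 ± 0.05 in attached cells (SD, n = 4 each; difference −0.22, adjusted p = 0.00816). RFNG, the radical fringe, stood at the threshold (0.20, adjusted p = 0.0457) with overlapping groups. It lost the call after centring (0.15, adjusted p = 0.0842), quantile normalization (0.17, adjusted p = 0.0680), array weighting (0.18, adjusted p = 0.0590) or a variance trend (adjusted p = 0.0587), and when array 1, 3 or 4 of either group was dropped (0.16 to 0.24 with any 1 array dropped). LFNG (0.05), MFNG (0.12) and POGLUT1 (−0.20) did not pass. POGLUT1 did pass after centring (−0.24, adjusted p = 0.0391) or with a variance trend (adjusted p = 0.0488). It also passed among genes above the 25th percentile or the median level (adjusted p = 0.0491 and 0.0289). After quantile normalization or array weighting it did not (adjusted p = 0.0638 and 0.0745).

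Ubiquitin ligases and endocytic regulators numbered 16, of which 4 rose and 1 fell. Of all tested genes, 10.4% rose and 10.2% fell. NEDD4, a ligase that acts on many membrane proteins, fell with signals of 7.05, 7.31, 7.37 and 7.18 in suspended cells against 8.02, 7.96, 8.10 and 8.02 in attached cells. The groups did not meet, and the log2 difference was −0.80 (SE 0.07, adjusted p = 1.19e-05). EPN2, an epsin of the kind that carries ubiquitinated ligand into the cell, rose by 0.46 (adjusted p = 0.000218). DTX3L of the Deltex family differed by 0.28, the ligand ligase NEURL1 by 0.26 and the ligand ligase MIB1 by 0.21 (adjusted p = 0.0051, 0.0139 and 0.0268). The MIB1 call ended after centring (0.16, adjusted p = 0.0677) and when suspended array 1 or 4, or attached array 2 or 3, was dropped (0.17 to 0.24 with any 1 array dropped). The 11 that did not pass were NUMB (0.12), ITCH (−0.02) and FBXW7 (0.19), which restrain or remove Notch, with MIB2, EPN1, NUMBL, DTX1, DTX2, DTX3, DTX4 and AAK1.

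**Figure D4:**
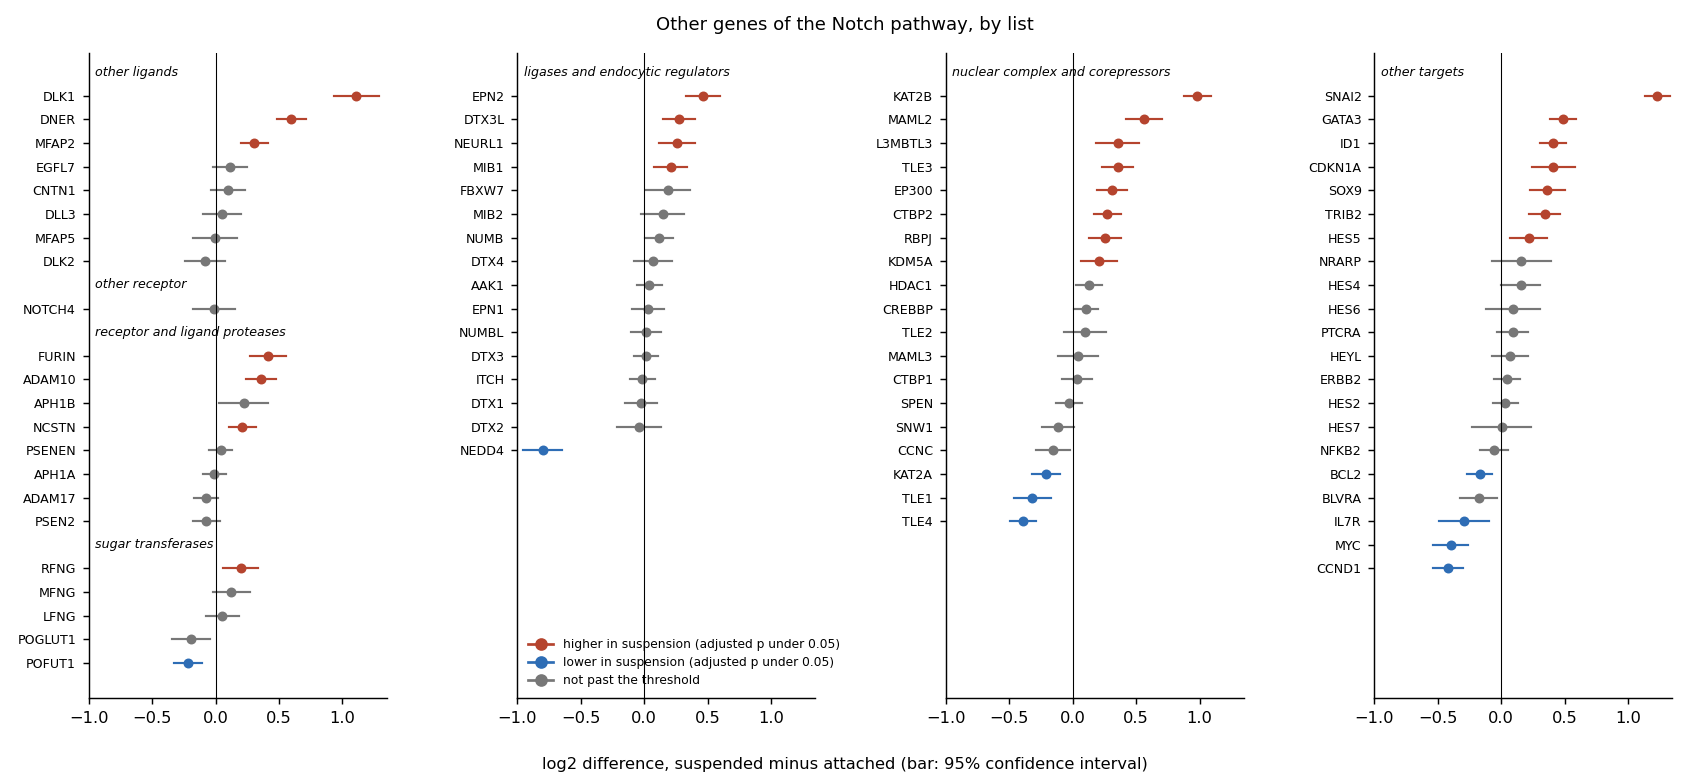
Log2 difference, suspended minus attached (horizontal axis), with 95% confidence intervals as bars, for 78 further Notch pathway genes grouped by list. Red genes were higher (26), blue genes lower (9) and grey genes did not pass, and SNAI2, DLK1 and KAT2B lie farthest to the right.

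In the nuclear list of 19 genes, 8 rose (42.1%) and 3 fell (15.8%), against 10.4% and 10.2% of all genes. KAT2B, an acetyltransferase recruited by the Notch complex, had 9.03, 9.09, 9.15 and 9.06 in suspended and 8.03, 8.07, 8.14 and 8.16 in attached cells. It rose 1.98-fold (log2 0.98, SE 0.05, adjusted p = 1.76e-07), whereas its paralogue KAT2A fell by 0.21 (adjusted p = 0.0118). MAML2, a coactivator that binds the intracellular part of Notch and RBPJ, rose 1.48-fold (log2 0.56, SE 0.06, adjusted p = 8.46e-05), and the acetyltransferase EP300 differed by 0.31 (adjusted p = 0.00160). L3MBTL3, which binds RBPJ as a repressor, differed by 0.36 and the corepressor CTBP2 by 0.27 (adjusted p = 0.00667 and 0.00177).

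RBPJ itself averaged 9.01 ± 0.11 in suspended and 8.75 ± 0.02 in attached cells at its brighter probe set (SD, n = 4 each; difference 0.25, adjusted p = 0.00852). A dimmer second probe set of RBPJ gave −0.15 (adjusted p = 0.397 when all probe sets were tested). Averaging both gave no call for the gene (0.05, adjusted p = 0.560). Among the TLE corepressors, which work with HES proteins, TLE4 fell by 0.39 and TLE1 by 0.32 (adjusted p = 0.000123 and 0.00528), TLE3 rose by 0.35 (adjusted p = 0.000890), and TLE2 did not pass (0.10). Nor did MAML3, SNW1, CREBBP, SPEN, HDAC1, CTBP1 and CCNC, whose differences lay between −0.15 (CCNC) and 0.13 (HDAC1). HDAC1 did pass after quantile normalization (0.19, adjusted p = 0.0110), a variance trend (adjusted p = 0.0122) or array weighting (0.14, adjusted p = 0.0457). It also passed among genes above the 25th percentile or the median level (adjusted p = 0.0482 and 0.0256), but not after centring (0.08, adjusted p = 0.320). KDM5A, a histone demethylase, differed by 0.21 (adjusted p = 0.0395). Its call ended after centring (0.16, adjusted p = 0.142) and when suspended array 1, 2 or 3, or attached array 1, 2 or 4, was dropped (0.16 to 0.26 with any 1 array dropped).

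Of 21 other reported target genes, 7 rose (33.3%) and 4 fell (19.0%), against 10.4% and 10.2% of all genes. SNAI2, a repressor of epithelial genes, had 11.28, 11.27, 11.16 and 11.23 in suspended and 9.99, 10.02, 9.97 and 10.03 in attached cells. The replicates were tight, and SNAI2 rose 2.35-fold (log2 1.23, SE 0.05, adjusted p = 2.76e-08). The luminal transcription factor GATA3 rose 1.40-fold (log2 0.49, adjusted p = 2.05e-05). ID1 (0.41), the cell cycle inhibitor CDKN1A (0.41), SOX9 (0.36) and the pseudokinase TRIB2 (0.34) rose as well, with adjusted p between 9.59e-05 (ID1) and 0.00288 (CDKN1A).

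MYC, a transcription factor, and CCND1 were among the 4 that fell. MYC had 8.61, 8.75, 8.65 and 8.81 in suspended and 8.98, 9.17, 9.19 and 9.07 in attached cells, and CCND1, which encodes cyclin D1, had 8.63, 8.68, 8.60 and 8.73 in suspended against 8.97, 9.15, 9.13 and 9.08 in attached cells. Neither overlapped between groups. The differences were −0.40 for MYC and −0.42 for CCND1 (adjusted p = 0.000916 and 0.000208). BCL2 (−0.17, adjusted p = 0.0216) and IL7R (−0.29, adjusted p = 0.0370) fell near the threshold. The BCL2 call ended with a variance trend (adjusted p = 0.0532) and when suspended array 4, or attached array 1 or 3, was dropped (−0.19 to −0.15 with any 1 array dropped). IL7R, whose signal is below the 25th percentile, lost its call when suspended array 1 or 3, or attached array 1, 3 or 4, was dropped (−0.34 to −0.21).

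Among the further HES and HEY genes in this list, 1 of 6 passed, beside 10.4% of all tested genes higher and 10.2% lower. HEY2, described above, did not pass either. HES5, a repressor of the same family, averaged 6.57 ± 0.08 in suspended and 6.35 ± 0.12 in attached cells (SD, n = 4 each; difference 0.22, adjusted p = 0.0371). The call ended after centring (0.17, adjusted p = 0.0670) and when suspended array 3 or 4, or attached array 1, 3 or 4, was dropped (0.17 to 0.26 with any 1 array dropped). HES2 (0.03), HES4 (0.15), HES6 (0.09), HES7 (0.01) and HEYL (0.07) did not pass, nor did NRARP, a feedback inhibitor of the Notch complex (0.16, interval −0.07 to 0.39). NFKB2, ERBB2, PTCRA and BLVRA did not pass either.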

How the data were processed

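Gene-level expression arrays measured total RNA of 4 suspended and 4 attached BT549 cultures. The authors deposited 1 table of log2 signals (33297 probe sets, 8 arrays); that the scale is log2 was inferred from the values, which reach 13.74, since no header states it. Partek was used, per the submitters' processing notes; version, background correction and normalization: not given in the sources used here. Probe sets with 1 gene symbol in the platform annotation (19460) were kept, 19429 matched RefSeq GRCh38.p14 by gene ID with 0 symbols changed, and the brightest probe set stood for each of 18417 genes. No further normalization was applied.

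The contrast of suspended minus attached was fitted in R 4.3.3 by limma 3.58.1 (lmFit, eBayes, two-sided, no covariate), with Benjamini-Hochberg adjustment over all 18417 genes, a threshold of 0.05 and 95% intervals from the moderated test. The pipeline was tested on simulated data. Figures used matplotlib 3.10.9, and summaries used pandas 2.3.3, scipy 1.17.1 and numpy 2.4.6 in Python 3.11.15. The alternatives were 2 scalings, 2 filters on dim genes, 2 treatments of several probe sets, 2 variance models, a replicate block and each array left out in turn.

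The members and the lists were chosen with earlier results of these data known. The rule for naming genes took all 10 members, every listed pathway gene (with its values where past the threshold, by name otherwise), the 5 genes most and the 5 least correlated with JAG1, and the largest rise and fall. Of the 85 listed genes, 7 are not analysed here. The labels name a labelling kit sold for small RNA and 1 µg of RNA per sample, so how RNA was labelled for these arrays is uncertain.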

Additional observations from a re-analysis of the deposited data

Results flagged for a closer look

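In 90 groups of 4 arrays, from the 10 members and the 35 called pathway genes, 3 held an array set far from the other 3 by Dixon's criterion, which sets the gap to the nearest array against the group's range, and chance alone flags about 1 in 20 such groups. DLL1 was 6.31 in suspended replicate 4, against 6.05 to 6.07 in the other suspended arrays. CDKN1A was 7.47 in suspended replicate 2, against 7.19 to 7.23 in the other suspended arrays. NEURL1 was 5.98 in attached replicate 2, against 5.89 to 5.90 in the other attached arrays.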

How the results depend on the processing

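The calls of JAG1, HES1, HEY1, NOTCH3 (higher) and NOTCH2 (lower) held under all 9 alternatives and without each of the 8 arrays. Over the 9 alternatives the log2 difference was 1.73 to 1.78 for JAG1, 0.61 to 0.68 for HES1, 0.61 to 0.67 for HEY1, 0.31 to 0.37 for NOTCH3 and −0.42 to −0.33 for NOTCH2. Only centring, quantile normalization and array weighting could move these differences. The other alternatives could change no more than the p-values, since each member has 1 probe set. JAG2, NOTCH1, DLL4 and HEY2 were called under none of those in which they were tested, DLL4 and HEY2 being removed by both filters on dim genes and DLL1 and NOTCH1 by the stricter one. The count of called genes ran from 2934 to 4191 over all genes (3787 as reported) and from 31 to 37 over the 78 pathway genes (35 as reported), and 0 of the 10 members and 35 called pathway genes changed sign. Of the 43 uncalled pathway genes 18 changed sign under at least 1 alternative or left-out array, 10 of them with centring (PSENEN, EPN1, NUMBL, DTX3, AAK1, MAML3, CTBP1, HES2, HES7 and ERBB2). Under at least 1 such setting 8 of the 43 were called, HDAC1, POGLUT1, CREBBP, CCNC and BLVRA among them. Same-numbered cultures did not deviate together (correlation of deviations from the group means 0.04, −0.20, −0.02 and −0.17 for replicates 1 to 4), so the numbers are not taken to pair samples. With the replicate number as a block 3022 genes were called, 1505 higher and 1517 lower, with 6 of the members, DLL1 being added (adjusted p = 0.0188), and 31 pathway genes, RFNG, KDM5A, HES5 and BCL2 being lost (adjusted p = 0.109, 0.0848, 0.0935 and 0.0556). Without a background measure, differences of dim genes such as DLL4, HEY2 and IL7R are the least certain.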
